A study of Mus musculus with 21 samples.

Results

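The 7 genes described here are Cd22, Cd79b and Ms4a1, which encode surface proteins of B cells, Cxcr5 and Cxcl13, a chemokine receptor and its ligand, and Lta and Ltb, the lymphotoxins. They were taken by name from a NanoString panel of 750 mouse genes, and all 7 were on it. The panel reads single RNA molecules by color-coded probes without copying them, here in total RNA of whole tumors. Cells of LLC, the Lewis lung carcinoma line of mouse, had been implanted in the right flank of male C57BL/6 mice, although the labels give the tissue as lung. The 21 libraries came from 3 groups. In 9 libraries the host was wild-type and the tumor was injected with PBS (sham), in 8 the host was wild-type and the tumor received a STING agonist (cGAMP, according to the design text), and in 4 the host carried the Tmem173 goldenticket allele (TMEM173gt, labelled Knockout) and received PBS. Tmem173 encodes STING, the adaptor of cytosolic DNA sensing, and the implanted LLC cells of the STING-deficient hosts keep their own copy of the gene. The labels give no age, dose or time of injection, they number the libraries without saying that each is a separate mouse, and no STING-deficient tumor with agonist was analysed here.

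As background, CD79B is a signalling chain of the B cell receptor, CD22 is an inhibitory receptor that dampens its signal, and the product of Ms4a1 is CD20. CXCR5 on B cells and follicular helper T cells guides them toward CXCL13, which stromal cells of lymphoid follicles secrete. Lymphotoxin alpha alone is a secreted ligand of TNF receptors, while lymphotoxin alpha and beta together form a membrane-bound ligand of the lymphotoxin beta receptor. That receptor signals through non-canonical NF-kB, induces Cxcl13 and other homeostatic chemokines in stroma, and is needed for lymph nodes to form. T cells, NK cells and B cells all express lymphotoxins. In RNA of a whole tumor, fewer cells of a type and less RNA per cell cannot be told apart.

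Lta and Ltb lie close together on chromosome 17, with Tnf between them. In the GRCm38.p6 annotation Ltb spans chr17:35194507-35196305 and Lta chr17:35203165-35205578. Promoter windows from RefSeq (GRCm38.p6) were at hand for 4 of the 7 genes, Cd22, Cxcl13, Lta and Ltb, each with 250 bases before and 50 after an annotated start. For Cd22 and Lta, both on the minus strand, that start lies inside the annotated span of the gene. Bases before it there belong at least in part to the gene itself, so the 4 windows are not alike. Both strands were searched for the kappa-B motif bound by NF-kB factors, for the core of the interferon-stimulated response element, spelled GAAA, any 2 bases and GAAA, and for GGAAGT, the core of sites of PU.1, a factor of B and myeloid cells. The Ltb window was the only one of the 4 with a match, to the kappa-B motif on the minus strand, starting 87 bases before the start. Of all 32851 windows 8.46% hold the kappa-B motif, 3.44% the response element core and 23.8% GGAAGT. The 250 bases before the Ltb start, chr17:35194257-35194506 on the plus strand, are shown with that match in capitals, because Ltb is the lymphotoxin whose rise remained past the threshold when the panel was rescaled.
Ltb: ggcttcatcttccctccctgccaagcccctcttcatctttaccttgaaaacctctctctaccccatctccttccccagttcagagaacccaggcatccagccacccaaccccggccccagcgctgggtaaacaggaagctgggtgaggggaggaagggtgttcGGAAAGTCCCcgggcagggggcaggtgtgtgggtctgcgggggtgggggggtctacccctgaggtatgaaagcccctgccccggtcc

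The deposited values are counts times a factor for each library, and the counts recovered from them summed to between 256573 and 763975 per library. The panel as a whole was higher in many agonist libraries. Its median probe lay between 61.5 and 218 in the 8 agonist libraries, between 57.0 and 71.8 in the 9 wild-type sham and between 35.2 and 60.8 in the 4 STING-deficient libraries. The value of a single count was 0.968 to 1.41 in agonist and 0.650 to 1.08 in wild-type sham libraries, so part of each fold change lies in this factor. Results are therefore given as deposited (the authors' scaling) and after TMM scaling, which uses a trimmed mean of log ratios to bring the bulk of the panel to one level. Agonist replicates 6, 7 and 8 stand apart, being the only 3 libraries written with 2 decimals, and counts of the 7 genes called are also given without them. No value in the matrix was 0. Tmem173 itself ran from 41.8 to 77.8 in wild-type and from 42.6 to 69.4 in STING-deficient sham libraries, and since the goldenticket allele is a missense mutation, its RNA level does not check the labels.

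In wild-type sham tumors 4 of the 7 genes lay near the lowest values of the panel. Cxcr5, Cd79b, Cd22 and Ms4a1 were among the lowest 10% of the 750 probes by their mean, which end at a value of 8.42, and held places 6, 23, 54 and 59 from the bottom. Lta was at place 133, Cxcl13 at 216 and Ltb at 217. Cxcr5 was read as 2 to 7 counts per sham library and as 35 counts in all 9, with an exact Poisson 95% interval of 24.4 to 48.7 that covers counting error only. Cd79b was read as 3 to 10 counts per library, Cd22 as 4 to 17, Ms4a1 as 3 to 14, Lta as 5 to 25, Ltb as 11 to 38 and Cxcl13 as 3 to 57. Negative control probes were not used here, so whether the lowest of these values exceed background was not tested.

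**Figure D1:**
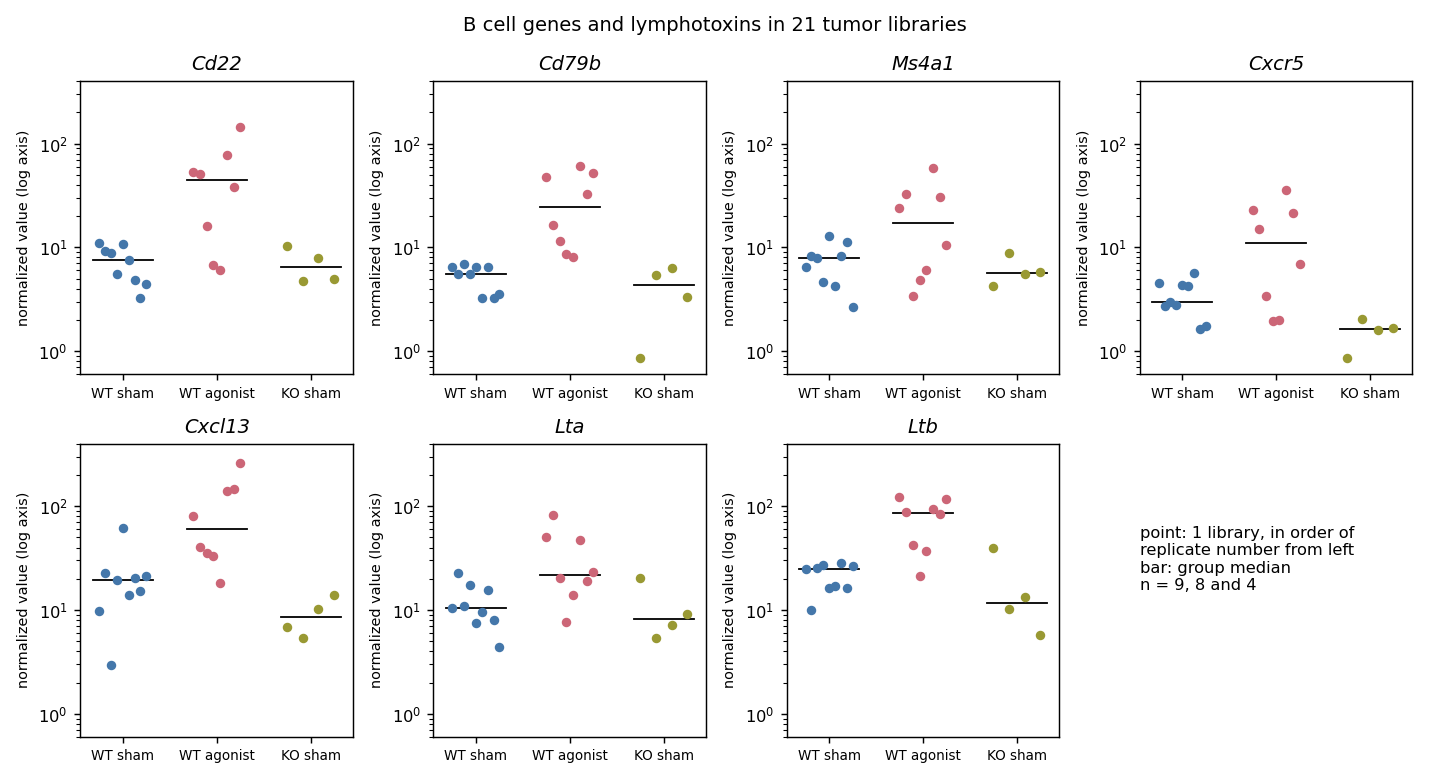
Normalized value of each gene in every library (log axis), with points in order of replicate number and a bar at the group median, for wild-type (WT) sham (n = 9), WT agonist (n = 8) and STING-deficient (KO) sham (n = 4). For Cd79b, as for 1.07% of the panel, all 8 agonist points lie above the highest WT sham point (8.05 to 61.2 against 6.90). The WT agonist and WT sham points of the other 6 genes overlap.

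The first comparison asks what the agonist changed in wild-type hosts. Of the 7 genes, 6 rose and Ms4a1 did not pass at an adjusted p under 0.05, with a median log2 fold change of 1.64. The same test called 69.2% of the 750 probes higher, with a median of 0.96, so a count of 6 of 7 is close to the background of this panel. It called 0.667% of probes lower and none of the 7 genes. After TMM scaling Cd22, Cd79b, Cxcl13 and Ltb were higher, 4 of 7 genes where the share of all probes was 9.07% (15.2% were lower), and Cxcr5 and Lta no longer passed. With every library set to the same median probe 3 of 7 were higher, Cd22, Cd79b and Ltb, against 7.73% of all probes. Without agonist replicates 6, 7 and 8 limma called 0 of the 7 genes, although 5 had an unadjusted p under 0.05, as did 347 of all 750 probes. There 0.4% of all probes were higher at the adjusted threshold. Quasi-likelihood tests in edgeR on the recovered counts of all 21 libraries called 7 of 7 higher, against 78.8% of the 749 probes without a blank, and 0.267% of these probes lower.

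Cd79b had a lowest, median and highest value of 3.21, 5.56 and 6.90 in wild-type sham and of 8.05, 24.4 and 61.2 in agonist tumors. It was one of 8 probes, 1.07% of the panel, with all 8 agonist libraries above the highest sham library. The log2 fold change was 1.97 ± 0.40 (SE, adjusted p = 0.00286), and 1.16 with TMM scaling (adjusted p = 0.0147). It was 1.36 and did not pass (adjusted p = 0.0558) without agonist replicates 6, 7 and 8. Set against its own library's median probe, 6 of 8 agonist libraries lay above the highest sham library. Cd22 went from 3.24, 7.49 and 11.1 (lowest, median and highest) to 6.04, 44.7 and 144. Agonist replicates 1, 2, 3, 6, 7 and 8 were above all 9 sham libraries and agonist replicates 4 and 5 within their range. At least 6 of 8 agonist libraries were above all sham libraries for 33.2% of the panel. Its log2 fold change was 2.05 ± 0.49 (adjusted p = 0.0031), or 1.23 with TMM scaling (adjusted p = 0.0158). Without the same 3 libraries it was 1.30 and did not pass (adjusted p = 0.0607). It ranked 13 of 750 by fold change under the authors' scaling. In agonist replicates 1 to 8, 80.3, 70.3, 40.4, 6, 15.3, 78.7, 78 and 74.7% of all probes lay above their highest wild-type sham library. The libraries listed for each gene stand beside these shares.

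Ms4a1, the third B cell surface gene, was not called. It had a lowest, median and highest value of 2.64, 7.89 and 13 in sham and of 3.42, 17.3 and 58.2 in agonist tumors. Agonist replicates 1, 2, 6 and 7 lay above every sham library, while replicates 3, 4, 5 and 8 were within the sham range, replicate 8 at 10.5 where Cd22 was at 144. Its log2 fold change was 0.99 ± 0.45 (adjusted p = 0.0534, 95% interval 0.06 to 1.92) and 0.19 with TMM scaling (adjusted p = 0.724), or 0.48 without those libraries (adjusted p = 0.361). Cxcr5 was low throughout, at 1.62, 2.96 and 5.71 in sham and 1.94, 11 and 35.5 in agonist libraries. Agonist replicates 1, 2, 6, 7 and 8 lay above the highest sham library. It rose by 1.24 ± 0.44 (adjusted p = 0.0193) under the authors' scaling and stood at 0.48 with TMM scaling (adjusted p = 0.304) and at 0.70 without those libraries (adjusted p = 0.194).

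Cxcl13, the ligand of CXCR5, had the widest spread among sham tumors, at 2.96, 19.5 and 61.6. In agonist tumors its lowest, median and highest values were 18.1, 60.6 and 262. Agonist replicates 1, 6, 7 and 8 lay above every sham library and the other 4 overlapped with them. The log2 fold change was 1.95 ± 0.50 (adjusted p = 0.00432), and 1.11 with TMM scaling (adjusted p = 0.0445). Without agonist replicates 6, 7 and 8, which hold its 3 highest values, it was 1.13 (adjusted p = 0.0842).

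Ltb had values of 10.0, 24.7 and 28.6 (lowest, median and highest) in sham and 21.3, 86.3 and 122 in agonist tumors. All agonist libraries other than replicate 4 lay above the highest sham library, where at least 6 of 8 did so for 33.2% of the panel. The log2 fold change of Ltb was 1.64 ± 0.37 (adjusted p = 0.00286), and 0.79 with TMM scaling (adjusted p = 0.0339). Lta had values of 4.4, 10.4 and 22.8 in sham and 7.75, 21.9 and 82.4 in agonist tumors. Agonist replicates 1, 2, 6 and 8 were above every sham library, the last only by 23.2 against 22.8. Its rise of 1.20 ± 0.40 (adjusted p = 0.0141) fell to 0.38 with TMM scaling (adjusted p = 0.392). The adjusted p of Ltb and of Lta was 0.0571 and 0.0799 without agonist replicates 6, 7 and 8, at fold changes of 1.30 and 1.15.

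**Figure D2:**
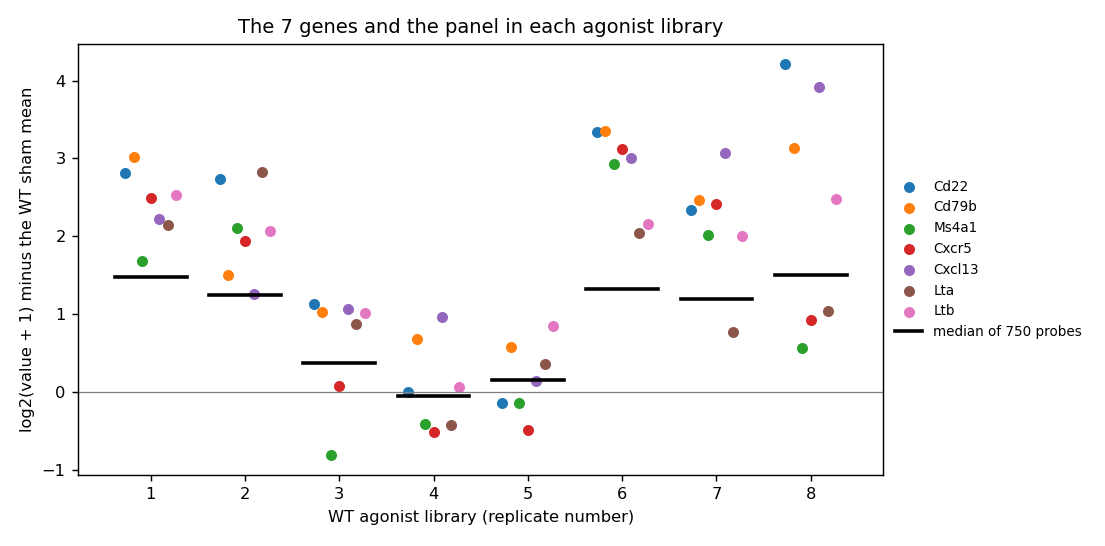
For each WT agonist library, log2(value + 1) of each gene minus its WT sham mean (colored points) and the median of the same difference over all 750 probes (black bars). In replicates 1, 2, 6, 7 and 8 the panel median is between 1.19 and 1.5 above sham and most of the 7 genes lie above it, while in replicates 4 and 5 it is -0.06 and 0.15.

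The 8 agonist libraries differed widely among themselves. The mean difference of the 7 genes from their sham means was 2.41, 2.06, 0.62, 0.05, 0.16, 2.85, 2.15 and 2.32 (log2) in agonist replicates 1 to 8. The panel median in the same libraries was 1.48, 1.24, 0.37, -0.06, 0.15, 1.33, 1.19 and 1.5, so libraries with high values of these genes were libraries with high values of most probes. Replicate 8 was uneven, with Cd22 and Cxcl13 at their highest, and Ms4a1, Cxcr5 and Lta below the panel median. In replicate 2 Lta was at its highest, at 82.4, and Cxcl13 at 40.6 within the sham range.

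Values at the bottom of the panel were also higher in these libraries. The 75 probes with the lowest mean in STING-deficient sham tumors, a group outside the comparison, had a median value of 4.55 to 7.56 in wild-type sham libraries. In agonist replicates 1, 2 and 6 that median was 28.3, 36.0 and 35.5, in replicates 7 and 8 it was 19.1 and 15.1, and in replicates 3, 4 and 5 it was 5.81 to 8.05. Cxcr5 and Cd79b belong to the 75. In agonist replicate 2 Cd79b at 16.3 and Cxcr5 at 15.1 were below that median. Cxcr5 was also below it in replicates 1 and 8, at 22.6 and 6.98. It was equal to the median in replicate 6 and above it in replicate 7, at 21.4. Cd79b was above that median in replicates 1, 6, 7 and 8. Of the 75 probes 53 were called higher, where 69.2% of all probes were, with a median log2 fold change of 1.09, or 0.31 with TMM scaling. No more than 3 of all 750 probes were called higher without agonist replicates 6, 7 and 8. What the rise of the lowest probes contributes to Cxcr5, Ms4a1, Cd22 and Cd79b was not tested.

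**Figure D3:**
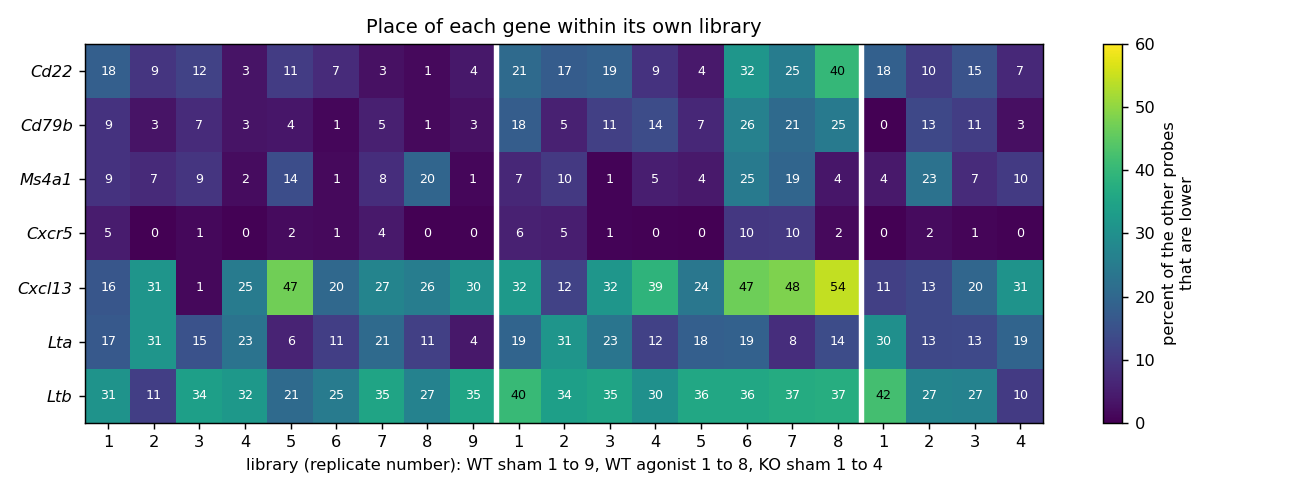
Percent of the other probes of the same library that were lower than each gene (color and number), for the 21 libraries in order of group and replicate. Cd22 and Cd79b stand at a median of 7.48% and 3.20% in WT sham and 19.7% and 15.8% in WT agonist libraries, and Ms4a1 at 7.88% and 5.81%.

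The place of a gene within its own library does not depend on the scaling between libraries. The share of other probes below Cd22 had a median of 7.48% in wild-type sham and 19.7% in agonist libraries, and that below Cd79b 3.20% and 15.8%. Ltb moved from 30.7% to 36.0% and Cxcl13 from 25.5% to 35.6%. Lta stood at 15.1% and 18.4%, Cxcr5 at 1.34% and 3.34%, and Ms4a1 at 7.88% and 5.81%. In STING-deficient sham libraries the medians were 12.9% for Cd22, 6.74% for Cd79b and 8.74% for Ms4a1. They were 26.8% for Ltb, 16.4% for Cxcl13, 16.2% for Lta and 0.534% for Cxcr5. These places are given as a description, with no test.

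The second comparison sets STING-deficient against wild-type hosts, both with sham injection. None of the 7 genes passed in limma or in edgeR, and none had an unadjusted p under 0.05 in either. Limma called 0 probes higher and 15 of 750, or 2%, lower, and after TMM scaling 2.53% were lower. Without agonist replicates 6, 7 and 8, which share the estimate of the spread, 2.93% were lower, with an equal median probe 0.667% were higher and 2.27% lower, and in edgeR 1.2% were lower. The median log2 fold change was -0.47 for the 7 genes and -0.29 for the panel. The 4 STING-deficient libraries had Cxcl13 values of 6.85, 5.41, 10.3 and 14.1, all within the wild-type sham range. Each was below the wild-type sham mean of 20.8 ± 16.5 (SD, n = 9), which only 3 of the 9 wild-type sham libraries exceeded. The Cxcl13 difference of -0.86 ± 0.62 (adjusted p = 0.671) has a 95% interval of -2.15 to 0.43. Cxcr5 values were 0.857, 2.03, 1.58 and 1.66, made of 1, 3, 2 and 2 counts, and the difference of -0.76 had an interval of -1.90 to 0.38.

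Cd79b was at 0.857, a single count, in STING-deficient replicate 1 and at 5.41, 6.32 and 3.32 in the others, with a difference of -0.47 (95% interval -1.49 to 0.56). Ltb had values of 39.4, 10.1, 13.4 and 5.81, so that replicate 1 lay above and replicate 4 below every wild-type sham library. Its difference was -0.56 (-1.50 to 0.39). Lta was also highest in replicate 1, with values of 20.6, 5.41, 7.11 and 9.12, and differed by -0.19 (-1.22 to 0.83). Cd22 values were 10.3, 4.74, 7.90 and 4.98 and Ms4a1 values 4.28, 8.80, 5.53 and 5.81, all within the wild-type sham range, with differences of -0.03 (-1.28 to 1.23) and -0.17 (-1.32 to 0.98). The intervals of all 7 genes include 0 and are too wide to show that the genotypes are alike. They rest on a spread estimated over all 21 libraries, agonist libraries included, and not on the sham libraries alone. The SD of Cd22 values, for example, was 2.87 in wild-type sham, 2.63 in STING-deficient sham and 45.9 in agonist libraries.

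The third comparison, agonist in wild-type against sham in STING-deficient hosts, changes genotype and treatment together and uses the same agonist libraries as the first. It called 6 of 7 genes higher, where 72% of all probes were higher and 0.533% lower, and 3 of 7 with TMM scaling, namely Cd79b, Cxcl13 and Ltb, where 17.7% were higher and 17.6% lower. With an equal median probe it was also 3 of 7, where 10.3% of probes were higher and 26.3% lower, and edgeR called 7 of 7 against 76% higher and 0.267% lower. Without agonist replicates 6, 7 and 8 it called 4 of 7, Cd79b, Cxcl13, Cxcr5 and Ltb, against 52.3% of all probes higher and 0.133% lower. Cxcl13 differed most, by 2.81 ± 0.63 (adjusted p = 0.00131), and all 8 agonist libraries, from 18.1 upward, lay above the highest STING-deficient value of 14.1. Cd79b differed by 2.43 ± 0.50 (adjusted p = 0.000693) and was likewise above in 8 of 8 libraries, the highest STING-deficient value being 6.32. How many of all probes separate from the 4 STING-deficient libraries in this way was not counted, so the separation is not read as particular to these genes. Ltb differed by 2.20 ± 0.46 and Cxcr5 by 2.0 ± 0.56, while Ms4a1 at 1.16 ± 0.56 did not pass (adjusted p = 0.0687). Under the authors' scaling the order of the 3 group means was agonist, wild-type sham, STING-deficient sham for all 7 genes. The panel leaned the same way, with a median log2 fold change of 0.96 after agonist and -0.29 between genotypes under sham. Between genotypes 80% of all probes had a lower log2 fold change than Cd22, which was at -0.03. How many probes share the full order was not counted. After TMM scaling the mean of STING-deficient sham lay above that of wild-type sham for Cd22 (9.92 and 8.74), Ms4a1 (9.29 and 8.96) and Lta (14.6 and 14.2). None of the 7 genes passed between the 2 sham groups under either scaling.

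**Figure D4:**
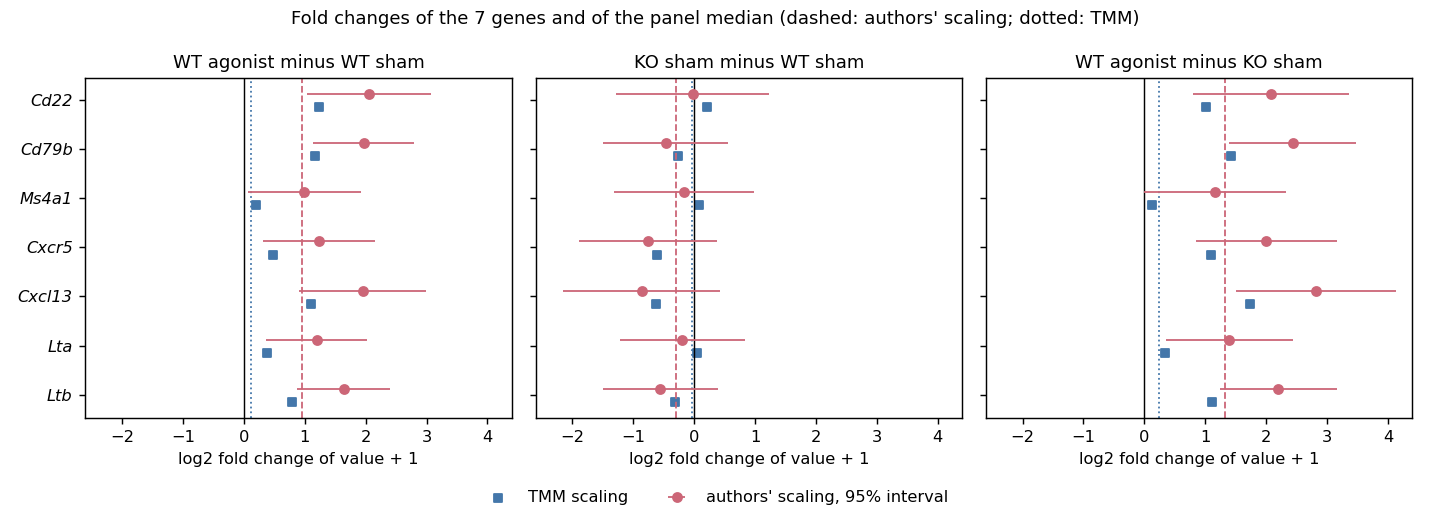
Log2 fold change of value + 1 for each gene in the 3 comparisons under the authors' scaling (circles, 95% interval) and with TMM scaling (squares), beside the median of all 750 probes (dashed line for the authors' scaling, dotted for TMM). After agonist the panel median moves from 0.96 to 0.12 between the scalings, and the genes shift left with it.

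Of 14 B cell markers on the panel, which include Cd22, Cd79b and Ms4a1, 10 rose after agonist, and the median log2 fold change of the 14 was 1.04. This count and those of the lists that follow stand beside 69.2% of all probes called higher as deposited and 9.07% after TMM scaling. In sham tumors 8 of the 14 were among the lowest 10% of the panel. With TMM scaling 2 of 14 were higher, Cd22 and Cd79b themselves, and the median was 0.23. Cd79a, the partner chain of CD79B, had a mean value of 5.46 ± 2.72 (SD, n = 9) in sham and 15.6 ± 15.7 (SD, n = 8) in agonist tumors and did not pass at 0.89 ± 0.46 (adjusted p = 0.0864). Tnfrsf13b, the receptor TACI of B and plasma cells, rose by 1.14 ± 0.29 (adjusted p = 0.00406), or 0.29 with TMM scaling. Of 4 plasma cell genes 3 rose, with a median of 0.91 over the list, and with TMM scaling 1 was higher and 1 lower. Irf4, also a T cell and dendritic cell factor, rose by 1.55 ± 0.33 and with TMM scaling by 0.72 (adjusted p = 0.0309), and Prdm1 and Tnfrsf17 stood at -0.02 and 0.16 with TMM scaling. Of 10 B cell receptor signalling genes 9 rose with a median of 0.94, among them Btk at 1.12 and Lyn at 0.97, kinases that myeloid cells also express, and with TMM scaling none was higher and 2 were lower.

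Of 11 receptor, ligand and signalling genes of the lymphotoxin and LIGHT pathways 9 rose, with a median of 0.86. With TMM scaling 2 were higher and 3 lower, around a median of -0.0016. Ltbr, the lymphotoxin beta receptor, was not past the threshold at 0.23 ± 0.14 (adjusted p = 0.138) and was lower with TMM scaling, at -0.64 (adjusted p = 0.0204). The receptors called under both scalings were Tnfrsf14 (HVEM, a receptor of LIGHT), at 1.73 ± 0.39 and 0.87, and Tnfrsf1b, the second TNF receptor, which also binds lymphotoxin alpha, at 1.90 ± 0.43 and 1.03. Tnfsf14, which encodes LIGHT, rose by 1.16 ± 0.36 (adjusted p = 0.00957), and stood at 0.31 with TMM scaling. Traf3, an inhibitor of non-canonical NF-kB, rose by 0.62 ± 0.17 but had a value of -0.24 with TMM scaling. Tnf, which lies between Ltb and Lta and was named after its value was seen, had a mean of 16.9 ± 3.31 (SD, n = 9) in sham and 220 ± 494 (SD, n = 8) in agonist tumors. It was higher by 1.70 ± 0.62 (adjusted p = 0.0218), and by 0.86 with TMM scaling, which did not pass (adjusted p = 0.231).

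Of 12 other lymphoid tissue chemokine and adhesion genes 8 rose, with a median of 1.06, and 2 were higher with TMM scaling. Among those 2 was Ccl20, a chemokine for CCR6-bearing lymphocytes and dendritic cells, at 2.20 ± 0.47, and at 1.34 with TMM scaling. Vcam1, an adhesion molecule, rose by 0.89 ± 0.22 but stood at 0.03 with TMM scaling. Ccl19, a ligand of CCR7 in lymphoid stroma, was at 5837 ± 1250 in sham and 6483 ± 2480 in agonist tumors, with a difference of 0.07 ± 0.22 (adjusted p = 0.773), and of -0.80 with TMM scaling (adjusted p = 0.0541). Of 14 B cell survival and help factors 12 rose, with a median of 1.33, and 3 were higher with TMM scaling. Cd40, which receives T cell help on B cells and other antigen presenting cells, rose by 1.51 ± 0.29, Il7r, a cytokine receptor of T cells and early B cells, by 1.91 ± 0.46 and Icos, a T cell costimulator, by 1.42 ± 0.35. With TMM scaling Cd40 and Il7r passed, at 0.65 and 1.06, and Icos did not, at 0.56 (adjusted p = 0.0909). Tnfsf13b, which encodes the B cell survival factor BAFF, rose by 1.36 ± 0.38 (adjusted p = 0.00551), or 0.53 with TMM scaling (adjusted p = 0.13).

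Markers of other cells moved in the same libraries. T cell genes were called higher in 13 of 14 cases (median 1.47) and in 6 with TMM scaling, with Cd3d at 1.56, Cd3e at 1.63 and Cd4 at 2.22. NK cell genes were called in 9 of 10 cases (1.83) and in 6 with TMM scaling (1 was lower), with Klrc1 at 2.05, Eomes at 1.55 and Klrd1 at 1.47, of which Klrd1 did not pass with TMM scaling (0.60, adjusted p = 0.0769). Macrophage and monocyte genes were called in 9 of 12 (1.09; Csf1r at 1.48, Cybb at 1.41, Mertk at 1.31), dendritic cell genes in 6 of 7 (0.98; Irf8 at 1.35, Flt3 at 0.98, Itgae at 1.0) and stromal and endothelial genes in 7 of 10 (1.08; Vwf at 1.08, Kdr at 1.17, Pecam1 at 1.32), none of these 3 lists with a higher gene under TMM scaling and 2 macrophage genes lower there. Summed values of the T cell list ran up to 351 in wild-type sham and from 281 to 1694 in agonist libraries, and those of the B cell list up to 398 and from 292 to 1800. Without agonist replicates 6, 7 and 8 limma called no gene of the 11 lists after agonist, where 347 of the 750 probes had an unadjusted p under 0.05. No gene of these 11 lists was called between genotypes under sham. The part of these other cell types in the values of Lta, Ltb and Cxcl13 was not tested.

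The genes most like each of the 7 were sought as a description, by the correlation (Pearson) of log2 values over the 21 libraries after taking out each library's median probe. The libraries share their group and scaling, and low probes also share counting noise. Ltb was most like Cd7, a gene of T and NK cells (0.86), Cd3d (0.84) and Cd6 (0.83), both T cell genes, and over the 13 sham libraries alone these correlations were 0.85, 0.79 and 0.75. Lta was most like Stat4, a transducer of interleukin 12 signals (0.83, and 0.82 in sham libraries), Mnx1 (0.82) and the B cell receptor of BAFF, Tnfrsf13c (0.78). The wild-type sham means of Mnx1 and Tnfrsf13c were low, at 7.19 and 8.03. Cd22 was most like Il12rb1, an interleukin 12 receptor chain (0.89), Cd4 (0.85) and Hcst (0.83), which in sham libraries were at 0.57, 0.45 and 0.61. Il12rb1 was itself low, with a wild-type sham mean of 5.50. Cd79b had no neighbour above 0.65, the value with Il12rb1, which was -0.01 in sham libraries, followed by Ncam1 (0.63) and Ddx60 (0.63). Cxcl13 was closest to Abca1 (0.70), Ebi3 (0.68) and Pecam1 (0.68). Ms4a1 and Cxcr5 shared the neighbours C9, a terminal complement gene (0.79 and 0.73), and Mpped1 (0.78 and 0.77), both with sham means under 7, besides Ccr2 (0.78) for Ms4a1 and Il17f (0.78) for Cxcr5. Among the 7 genes the closest pairs were Ms4a1 with Cxcr5 (0.70), Cd22 with Cd79b (0.62) and Cd79b with Cxcr5 (0.61), while Lta with Ltb was at 0.19 and Cxcl13 with Cxcr5 at 0.29.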

How the data were processed

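Whole tumors gave TRIzol-extracted total RNA, per the labels' protocols, for the NanoString panel. The authors deposited normalized signal values for 750 endogenous probes in 21 libraries, and how they scaled them is not given in the sources used here. Single-library files differed from the matrix by at most 0.05. Within each library 99.7% to 100% of the values up to 150 were whole multiples of a step (within 0.1 of it), from which counts were recovered. No pair of libraries in a group agreed within sampling noise (lowest chi-square per degree of freedom 6.76).

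Log2(value + 1) was modelled with 3 group means in limma 3.58.1 (eBayes with trend and robust) over all 750 probes and 21 libraries, two-sided, with Benjamini-Hochberg adjustment within a comparison at 0.05. No filter on low values was applied, since some of the 7 genes would pass one only through agonist libraries. The pseudocount understates fold changes of low genes. Fold changes, SE and adjusted p are limma's unless edgeR 4.0.16 (counts, authors' factors as offsets) is named. TMM factors came from edgeR. Since no label names separate mice, p-values reflect only how far these libraries scatter. The limma fit was tested on simulated data. The simulation gave every group the same dispersion and no shift of the whole panel. It therefore cannot show how the p-values behave with the uneven agonist libraries seen here. The 11 gene lists and the 7 genes were chosen with earlier results of these data known. Named are the 7 genes, up to 3 genes per list with the smallest adjusted p, 6 genes fixed by name and the 3 genes most like each of the 7, apart from 2 genes that are not reported here. Replicate numbers of the titles were not taken as pairs in the main fit. The correlations of same-numbered libraries lay between -0.19 and 0.59. Libraries of different numbers were not correlated beside them, so these values cannot show whether the numbers pair the samples.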

Additional observations from a re-analysis of the deposited data

How the results depend on the processing

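Besides the settings in the text, pseudocounts of 5 and 20, a filter (a value of at least 20 in at least 4 libraries, which Cxcr5 did not meet), eBayes without trend, fits of the 2 compared groups alone and edgeR were tried, each library was left out in turn, and a floor at 10 and TMM scaling without agonist replicates 6, 7 and 8 were added after seeing the data. For agonist against wild-type sham, 6 of the 7 genes were called, 6 to 7 without 1 library, 4 with TMM scaling, 3 with the median probe set equal, and 0 without agonist replicates 6 to 8 with either scaling. For agonist against STING-deficient sham the count of 6 was 5 to 7 without 1 library, 3 with TMM scaling or an equal median probe, and 0 with TMM scaling and without those 3 libraries. Between genotypes it was 0 under every setting tried. With the replicate block, which shared numbers alone motivate, the counts were 6, 0 and 6 (Ms4a1 at 0.85 after agonist, adjusted p = 0.12). Probes called higher after agonist numbered 519, 68 with TMM scaling, 58 with an equal median probe and 3 without agonist replicates 6 to 8.

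Ms4a1 after agonist had an adjusted p between 0.0142 and 0.133 without 1 library, passing without agonist replicate 3, 4 or 5 or sham replicate 5 or 8. It passed with pseudocounts of 5 and 20 (0.0405 and 0.0318), with the floor (0.0183) and in edgeR (0.00586), and turned to -0.052 with TMM scaling and without the 3 libraries. Against STING-deficient sham it turned to -0.12 there and with an equal median probe. Between genotypes, where no gene passed, Cd22 at -0.03 turned to 0.21 with TMM scaling and 0.39 with an equal median probe, Ms4a1 at -0.17 to 0.072 and 0.25, and Lta at -0.19 to 0.0467 and 0.23, all 3 with the same values under TMM scaling without the 3 libraries; without 1 library Cd22 ranged from -0.21 to 0.11 and Lta from -0.55 to 0.0363. The cause was not tested. Depth limits Cxcr5 most, at 2 to 7 counts per sham library.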
